A study of Mus musculus with 7 samples.

Results

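The genes described are 9 transcription factors of the interferon and cytokine response in mouse brain microglia: Stat2 and Stat3 of the STAT family, and Irf1, Irf2, Irf3, Irf5, Irf7, Irf8 and Irf9 of the interferon regulatory factor (IRF) family. They were chosen by name, with earlier results of these data known, so their counts against all genes are descriptions and no independent test. Each of the 9 matched exactly 1 of the 55401 gene rows. All 9 passed the filter on low counts that left 19199 genes for testing. The smallest count of any of them in any library was 833, for Irf7 in EYFP 3.

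STAT proteins lie inactive in the cytoplasm until a Janus kinase at an activated cytokine receptor phosphorylates them, after which they pair and enter the nucleus. Type I interferon brings STAT2 together with a second STAT and with IRF9 into the complex ISGF3, which binds the interferon-stimulated response element (ISRE) in the promoters of antiviral genes. IRF3, IRF5 and IRF7 are activated downstream of nucleic acid sensors and Toll-like receptors and switch on interferon genes, and IRF8 is a lineage factor that microglia need for their development. In microglia these factors are known chiefly from infection, ageing and neurodegeneration, where an interferon-responsive state has been described.

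RNA was sequenced from microglia of the dorsal hippocampus of male C57BL/6 mice aged 6 to 8 weeks. The dorsal dentate gyrus of every mouse had been injected with AAV-RAM-Cre, a virus in which the activity-dependent RAM promoter drives Cre recombinase in neurons that were active during an experience (engram neurons). In the EYFP group, the control, a Cre-dependent virus for the fluorescent protein EYFP was given with it (4 libraries, EYFP 1 to 4), and in the ATG7 group a Cre-dependent virus for Flag-tagged Atg7, an enzyme of autophagosome formation (3 libraries, ATG7 1 to 3). The transgene was thus directed at neurons, whereas the RNA came from cells enriched with beads against CD11b, a surface protein of myeloid cells. The labels do not give the number of mice behind a library, so the p-values below measure the spread between these libraries. In bulk libraries of this kind, fewer cells of a type and less RNA per cell cannot be told apart.

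Total counts per library lay between 35934210 and 55217119. Expression is given as CPM, the count of a gene relative to the size of its library, scaled with trimmed means of M values (TMM). Group means are given ± SD over the 4 EYFP and the 3 ATG7 libraries. Atg7 was at 35.6 ± 1.68 in EYFP and 34.9 ± 2.76 CPM in ATG7 (log2 fold change -0.03, edgeR adjusted p = 0.939), which checks nothing about the transgene in neurons. EYFP 3 went against the label male, with 938.5 CPM of the female transcript Xist against 0.151 to 0.574 CPM in the other 6 libraries. It also held RNA of the Y-linked gene Ddx3y, at 27.6 CPM against 121.1 to 168.7 CPM in the other 6. Whether it mixes RNA of both sexes was not tested. Each factor is therefore also given without EYFP 3. The 10 microglial markers, among them P2ry12 and Tmem119, were present in every library and summed to 22594 to 27641 CPM in EYFP and to 22345 to 27506 CPM in ATG7. The libraries also held RNA of other cells: 10 choroid plexus markers, led by Ttr, summed to 55313 to 72990 CPM and 46823 to 61657 CPM. In edgeR 0 of the 10 microglial and 0 of the 10 choroid plexus markers passed (0 and 3 with an unadjusted p under 0.05, 0 and 1 with DESeq2). All 10 choroid plexus markers had a log2 fold change below 0, with a median of -0.26. The 3 with an unadjusted p under 0.05 were Aqp1, Otx2 and Slc4a5, and the share of all genes lower at that level was not computed. The 1 that DESeq2 called, Slc4a5, was lower in ATG7 (DESeq2 adjusted p = 0.0444). Of all 19199 genes tested, DESeq2 called 176 lower. The part of this difference in the levels of the factors was not tested.

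All 9 genes had a log2 fold change above 0 in ATG7 against EYFP, and 2 of the 9, Stat2 and Irf1, rose (quasi-likelihood test of edgeR, p under 0.05 after Benjamini-Hochberg adjustment over all genes). Of all genes tested, 0.755% were called, 0.688% higher in ATG7 and 0.0677% lower, and 49.2% had a log2 fold change above 0. In 4 of the 9 genes, Irf7, Stat2, Irf1 and Irf9, every ATG7 library lay above every EYFP library, against 6.33% of all genes, and in none did every ATG7 library lie below, against 4.91%. An unadjusted p under 0.05 with the higher level in ATG7 was found for 5 of the 9 and for 6.27% of all genes. The median log2 fold change was 0.25 over the 9 genes and -0.0037 over all genes. The 9 genes divided into members with a wide difference (Irf7 and Stat2), members with a modest one (Irf1 and Irf9) and members whose libraries overlapped (Irf8, Stat3, Irf3, Irf2 and Irf5).

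**Figure D1:**
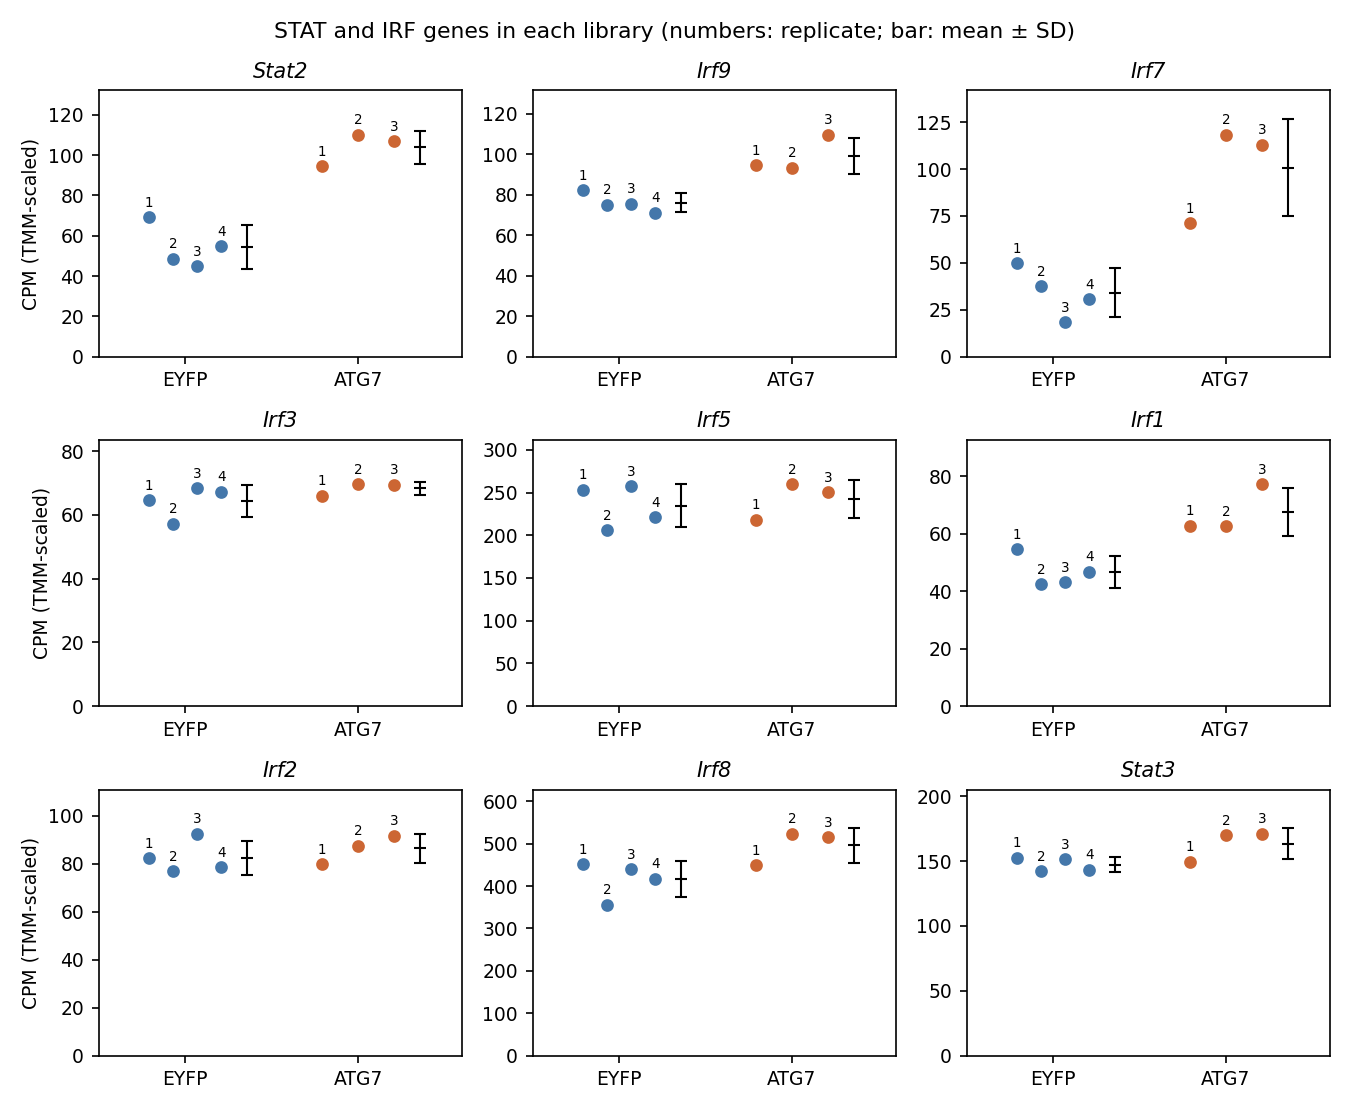
TMM-scaled CPM of each gene in each library, with EYFP libraries in blue and ATG7 libraries in orange, numbered by replicate; bars give the group mean ± SD and each axis starts at 0. The ATG7 libraries lie above all EYFP libraries for Stat2, Irf9, Irf7 and Irf1, and the groups overlap for Irf3, Irf5, Irf2, Irf8 and Stat3.

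Stat2, the STAT subunit that is specific to ISGF3 (ENSMUSG00000040033, chromosome 10, 128270559 to 128292849 in GRCm38), was at 69.2, 48.6, 44.9 and 54.8 CPM across EYFP 1 to 4, and ATG7 1 to 3 held 94.6, 110.1 and 106.9 CPM. The highest EYFP library, EYFP 1, was below the lowest ATG7 library. The mean went from 54.4 ± 10.7 to 103.9 ± 8.17 CPM, a 1.91-fold rise. On the log2 scale the rise was 0.93 (SE 0.131, edgeR adjusted p = 0.0137), and 1.68% of all genes had a larger one. Without EYFP 3 it was 0.85 (edgeR adjusted p = 0.0107). The call was lost when EYFP 2, EYFP 4, ATG7 2 or ATG7 3 was left out, with log2 fold changes of 0.88, 0.94, 0.89 and 0.91 (edgeR adjusted p = 0.0522, 0.0574, 0.0753 and 0.0843).

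Irf9, the DNA-binding subunit of ISGF3 (ENSMUSG00000002325, chromosome 14, 55603571 to 55610030), was at 82.2, 75.0, 75.5 and 71.0 CPM across EYFP 1 to 4, and ATG7 1 to 3 held 94.5, 93.2 and 109.5 CPM. The groups did not overlap, but the step was smaller than that of its partner. Its log2 fold change of 0.38 (SE 0.0797) had a 95% interval of 0.21 to 0.56 and was just short of the threshold (edgeR adjusted p = 0.0590). Without EYFP 3 it was 0.38 (edgeR adjusted p = 0.115), and without EYFP 1 it was 0.42 and passed (edgeR adjusted p = 0.0304). Irf9 shares 123 bases of exon with Rnf31 on the same strand, 2.28% of its exon length, and Rnf31 had a log2 fold change of 0.23 (edgeR adjusted p = 0.263).

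The promoter of Stat2 is shown because it holds a match to the ISRE core, the letters that its own complex binds. The window covers bases -250 to -61 before the RefSeq start (chr10:128270248-128270437, plus strand, GRCm38.p6), printed 5′ to 3′ with the match in capitals at -222 to -213, on the minus strand.
Stat2: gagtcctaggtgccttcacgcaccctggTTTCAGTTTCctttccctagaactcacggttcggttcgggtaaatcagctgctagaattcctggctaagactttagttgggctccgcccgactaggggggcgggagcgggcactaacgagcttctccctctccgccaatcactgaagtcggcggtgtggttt

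Irf7, the IRF that carries the amplifying wave of type I interferon (ENSMUSG00000025498, chromosome 7, 141262706 to 141266481), was at 49.9, 37.6, 18.5 and 30.7 CPM in EYFP 1 to 4. In ATG7 1 to 3 it was at 71.1, 118.2 and 113.0 CPM. It had the widest difference of the 9 genes and also the widest relative spread within each group. The highest EYFP library was 2.70 times the lowest, and the EYFP coefficient of variation was 38.5%, larger than in all but 0.604% of the 10260 genes with a mean of at least 10 CPM. Without EYFP 3 these were 1.63 times and 24.8%. The log2 fold change was 1.56, or 2.95-fold, and only 0.464% of all genes had a larger one. Its SE of 0.347 left a 95% interval of 0.73 to 2.40, and the gene did not pass (edgeR adjusted p = 0.152). EYFP 3 was the lowest library: without it the log2 fold change was smaller, 1.35, and passed (edgeR adjusted p = 0.0482). DESeq2 and limma-voom called Irf7 with all 7 libraries (adjusted p = 0.00215 and 0.0248), where these tools called 2.11% and 0.901% of all genes higher.

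The Irf7 promoter window is shown beside that of Stat2 because the gene with the widest difference held no match to either motif searched. It covers bases -250 to -61 before the RefSeq start (chr7:141266485-141266674, minus strand, GRCm38.p6).
Irf7: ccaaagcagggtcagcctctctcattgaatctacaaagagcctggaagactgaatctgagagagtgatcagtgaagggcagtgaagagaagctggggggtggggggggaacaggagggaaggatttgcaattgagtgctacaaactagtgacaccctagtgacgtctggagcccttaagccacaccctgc

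Irf3, the constitutive IRF that responds first to cytosolic nucleic acid (ENSMUSG00000003184, chromosome 7, 44997648 to 45002848), lay between 57.3 and 68.3 CPM in EYFP and between 65.9 and 69.5 CPM in ATG7. These groups overlapped, and the 95% interval of the log2 fold change ran from -0.08 to 0.25 around 0.09 (edgeR adjusted p = 0.719). Irf5, which acts downstream of Toll-like receptors in macrophages (ENSMUSG00000029771, chromosome 6, 29526625 to 29541871), lay between 205.8 and 257.2 CPM in EYFP and between 218.0 and 259.6 CPM in ATG7. Its log2 fold change was 0.05 with a 95% interval of -0.17 to 0.27 (edgeR adjusted p = 0.898). For both genes the interval leaves out a change as large as that of Stat2. Without EYFP 3 the log2 fold changes of Irf3 and Irf5 were 0.11 and 0.09. Irf5 shares 411 bases of exon with Tnpo3 on the opposite strand, 14.1% of its exon length, and Irf1, Irf3, Irf7 and Stat3 share 45 to 135 bases with genes on the opposite strand. Whether counting used strand is not given in the sources used here.

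Irf1, an activator induced by interferon gamma that drives antigen presentation genes (ENSMUSG00000018899, chromosome 11, 53770014 to 53778374), was at 54.6, 42.4, 43.2 and 46.8 CPM across EYFP 1 to 4, and ATG7 1 to 3 held 62.7, 62.6 and 77.2 CPM. EYFP 1 again came closest to ATG7 among the controls. The mean went from 46.7 ± 5.57 to 67.5 ± 8.39 CPM, a 1.45-fold rise. On the log2 scale this was 0.53 (SE 0.105), close to the threshold (edgeR adjusted p = 0.0483). Without EYFP 3 it was 0.49 and not called (edgeR adjusted p = 0.107). Of the 7 fits that leave out 1 library, the fit without EYFP 1 alone kept the call, and the log2 fold change was lowest, 0.42, without ATG7 3 (edgeR adjusted p = 0.237).

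Irf2, which binds the same elements as Irf1 and antagonises it at many promoters (ENSMUSG00000031627, chromosome 8, 46739732 to 46847458), lay between 76.8 and 92.4 CPM in EYFP and between 79.9 and 91.6 CPM in ATG7. The ATG7 range lay inside the EYFP range. The log2 fold change was 0.07 with a 95% interval of -0.11 to 0.25 (edgeR adjusted p = 0.819), and it was 0.12 (edgeR adjusted p = 0.596) without EYFP 3.

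The promoters of Irf1 and Irf2 are shown because the activator and its antagonist both have a GAS match before the start and only Irf2 an ISRE match. Irf1 (chr11:53769764-53769953, plus strand, the first of 2 starts) has a match to the gamma-activated site (GAS), the element bound by STAT pairs, at -90 to -82. Irf2 (chr8:46739495-46739684, plus strand) has an ISRE match at -241 to -232 and a GAS match at -224 to -216. Both windows are bases -250 to -61 before the RefSeq start in GRCm38.p6, with the matches in capitals.
Irf1: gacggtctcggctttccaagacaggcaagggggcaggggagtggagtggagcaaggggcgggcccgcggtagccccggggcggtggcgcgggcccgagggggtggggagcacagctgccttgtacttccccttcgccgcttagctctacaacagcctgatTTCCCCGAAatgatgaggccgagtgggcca
Irf2: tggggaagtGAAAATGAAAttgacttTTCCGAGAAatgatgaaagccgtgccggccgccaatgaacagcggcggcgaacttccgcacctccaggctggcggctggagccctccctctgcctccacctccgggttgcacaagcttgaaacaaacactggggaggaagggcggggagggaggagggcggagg

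Irf8, the lineage factor of microglia and of other mononuclear phagocytes (ENSMUSG00000041515, chromosome 8, 120736358 to 120756694), was at 451.6, 356.0, 439.8 and 416.9 CPM across EYFP 1 to 4, and ATG7 1 to 3 held 448.5, 522.9 and 515.0 CPM. ATG7 1 lay just below EYFP 1, so the groups overlapped. A log2 fold change of 0.25 (SE 0.100) had a 95% interval of 0.03 to 0.47 for the single gene, and it did not pass over all genes (edgeR adjusted p = 0.342). Without EYFP 3 it was 0.27 (edgeR adjusted p = 0.337).

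Stat3, the STAT of the IL-6 and IL-10 receptor families (ENSMUSG00000004040, chromosome 11, 100885098 to 100939540), lay at 142.0 to 152.6 CPM in EYFP, with a coefficient of variation of 3.68%, the lowest of the 9 genes over the 4 libraries. In ATG7 1 to 3 it was at 149.5, 169.9 and 171.0 CPM, and ATG7 1 lay within the EYFP range. The log2 fold change was 0.15 with a 95% interval of -0.02 to 0.31 (edgeR adjusted p = 0.472), and 0.16 without EYFP 3.

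The Irf8 promoter is shown because it holds 2 GAS matches, at -171 to -163 and at -153 to -145. The window again covers bases -250 to -61 before the RefSeq start (chr8:120736108-120736297, plus strand, GRCm38.p6), the first of the 2 starts listed for this gene.
Irf8: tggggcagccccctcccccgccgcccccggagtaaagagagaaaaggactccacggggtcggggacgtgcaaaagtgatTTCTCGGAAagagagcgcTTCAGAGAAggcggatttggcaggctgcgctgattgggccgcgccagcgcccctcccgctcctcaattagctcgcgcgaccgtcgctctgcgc

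The motif search used the RefSeq windows from 250 bases before to 50 bases after each listed start. The ISRE core was GAAA, any 2 bases and GAAA again, searched on both strands, and the GAS core was TTCNNNGAA, which reads the same on both strands. The 9 genes had 12 windows, since Irf1, Irf8 and Irf9 each have 2 listed starts. An ISRE match was found in 2 of the 12 windows (Stat2 and Irf2) and a GAS match in 3 (the first starts of Irf1 and Irf8, and Irf2), and no match overlapped another. Among all 32851 windows of the same length, 3.44% held an ISRE match and 8.30% a GAS match. Of the 2 genes that rose, Stat2 had the ISRE match and Irf1 the GAS match, while Irf2 held both and its libraries overlapped between the groups. A match is a description of the letters, and its absence says only that the letters are not in this window.

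**Figure D2:**
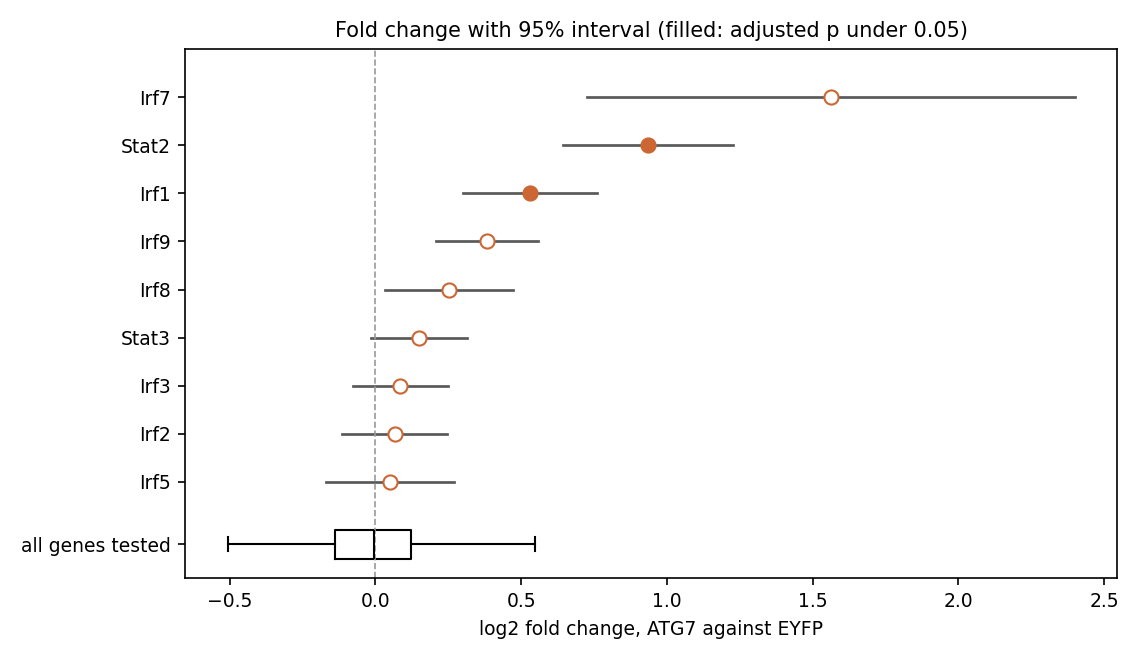
Log2 fold change of each gene with its 95% interval (edgeR quasi-likelihood fit), filled where the adjusted p was under 0.05; the box shows all 19199 genes tested, with the quartiles and whiskers at the 5th and 95th percentiles (-0.51 and 0.55). Irf7 and Stat2 lie beyond the upper whisker, and Irf1 lies just inside it.

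Levels of different genes were compared per kilobase of merged exon. In EYFP the order was Irf5 (80.7 ± 8.61 CPM per kb, SD, n = 4), Irf8 (59.0 ± 6.03), Irf3 (18.7 ± 1.44), Stat3 (15.5 ± 0.570), Irf9 (14.1 ± 0.863), Irf1 (11.8 ± 1.40), Irf2 (11.2 ± 0.947), Stat2 (9.18 ± 1.81) and Irf7 (9.05 ± 3.48). Irf5 and Irf8 stood well above the other 7 genes. Irf5, Irf8 and Irf3 were each apart from the next over the 4 libraries, and from Stat3 down each neighbour overlapped the next. In ATG7 the 2 leading genes were the same, Irf5 at 83.5 ± 7.50 and Irf8 at 70.2 ± 5.79 CPM per kb (SD, n = 3). Irf7, last of the 9 in EYFP, was the third in ATG7 at 26.7 ± 6.84 CPM per kb, although its range overlapped that of Irf3, the next in order. Stat2 was the eighth in EYFP and the sixth in ATG7, at 17.5 ± 1.38 CPM per kb, with ranges that overlapped those of Irf9 above and Stat3 below. With the length of the longest transcript in place of merged exons, Irf8 led Irf5 in both groups, Irf7 was last in EYFP and the fifth in ATG7, and Stat2 was the eighth in both groups.

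**Figure D3:**
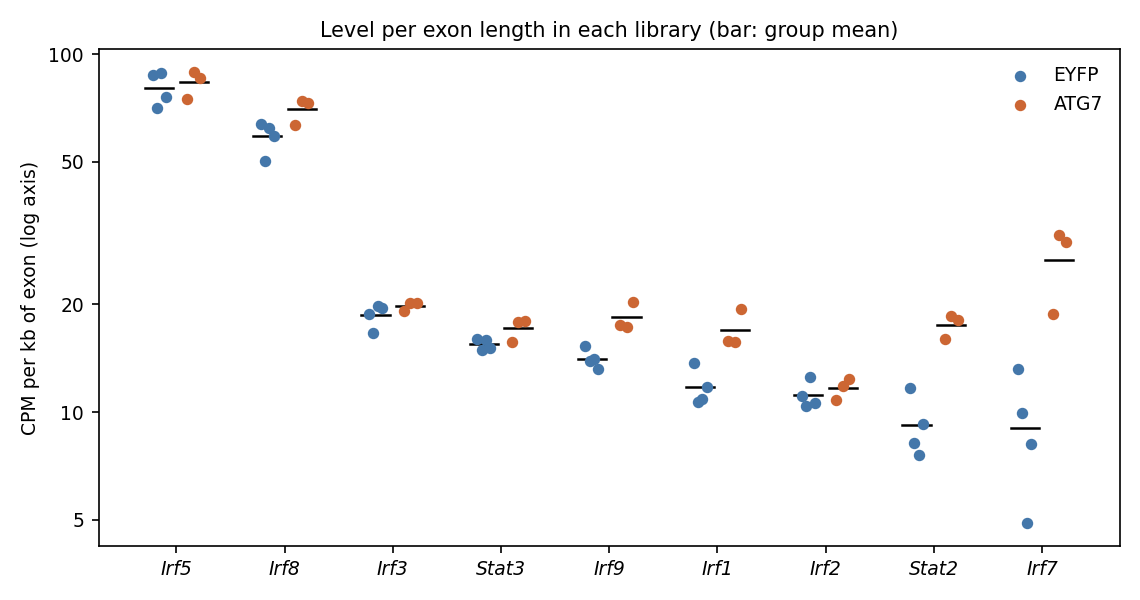
TMM-scaled CPM per kilobase of merged exon for each library (log axis; bars are group means), with genes in the order of their EYFP means. Irf5 and Irf8 lie at 50.5 or higher in all 7 libraries, and Irf7 has the lowest EYFP mean, 9.05, and an ATG7 mean of 26.7.

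Genes up and downstream of the factors were read from 8 lists written from general knowledge, but with earlier results of these data known. The counts of these lists are therefore descriptions and no independent test. For comparison, edgeR called 0.688% of all genes higher in ATG7 and 0.0677% lower. In 6.33% of all genes every ATG7 library lay above every EYFP library. Among interferon receptors and Janus kinases, 0 of 9 genes passed (edgeR; 2 had an unadjusted p under 0.05, and DESeq2 also called 0). All 9 had a log2 fold change above 0, between 0.08 and 0.22, with Jak2, a kinase of the interferon gamma receptor, lowest in p (0.21, edgeR adjusted p = 0.189). Among receptors that signal through Stat3, 0 of 9 passed (3 with an unadjusted p under 0.05, 0 with DESeq2), and the smallest p was that of the IL-21 receptor gene Il21r (log2 fold change 0.30, edgeR adjusted p = 0.235).

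Of 20 sensors, adaptors and kinases that activate Irf3, Irf5 and Irf7, 2 rose and none fell (edgeR, adjusted p under 0.05). Both encode cytosolic RNA sensors that are themselves interferon-inducible. Ddx58 (RIG-I) rose from 51.3 ± 6.91 to 79.6 ± 6.54 CPM, or 0.64 in log2 (edgeR adjusted p = 0.0206). Ifih1 (MDA5) rose from 45.6 ± 4.82 to 68.2 ± 6.45 CPM, by 0.58 (edgeR adjusted p = 0.0206). The median of the list was 0.16. The kinase gene Tbk1 was at 84.4 ± 5.51 and 84.5 ± 1.77 CPM, a value singled out after it was seen. Neither sensor gene was called without EYFP 4, ATG7 2 or ATG7 3, nor Ddx58 without EYFP 2.

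Of 18 negative regulators, 1 rose: Usp18, which shuts off the type I interferon receptor. It went from 14.2 ± 4.20 to 39.8 ± 8.97 CPM, or 1.49 in log2 (edgeR adjusted p = 0.0420), and was not called without EYFP 2, EYFP 4, ATG7 2 or ATG7 3, nor when no filter on low counts was used (edgeR adjusted p = 0.168). Cish, a STAT-induced suppressor of cytokine signalling with the next smallest p, went the other way, from 15.9 ± 2.88 to 11.2 ± 0.972 CPM (log2 fold change -0.51, edgeR adjusted p = 0.168), and was singled out after its values were seen. DESeq2 called Usp18 higher and Cish lower (Cish -0.52, adjusted p = 0.0378), and so did edgeR without EYFP 1 (Cish -0.63, adjusted p = 0.0200). The median of the list was 0.05.

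The targets of ISGF3 differed most among the pathway lists. Of 27 targets, 15 rose and none fell, their median log2 fold change was 1.14, and in all 27 each ATG7 library lay above every EYFP library. Bst2, which tethers budding virus, rose from 81.2 ± 12.5 to 147.7 ± 15.4 CPM, and Dhx58, a regulator of RIG-I-like receptors, from 18.1 ± 2.94 to 39.1 ± 7.98 CPM. The log2 fold changes were 0.86 and 1.11 (edgeR adjusted p = 0.0105 and 0.0118). DESeq2 and limma-voom called all 27, against 2.11% and 0.901% of all genes called higher by these tools. The count was 6 without EYFP 2, 24 without EYFP 3, 1 without ATG7 2, and 0 without EYFP 4 or without ATG7 3.

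Of 23 tested targets of Irf1 and interferon gamma, 12 rose and none fell, with a median log2 fold change of 0.61. Cd274, the ligand PD-L1, rose from 11.4 ± 0.901 to 20.7 ± 1.68 CPM, by 0.87 (edgeR adjusted p = 0.00581). Gbp2, a guanylate-binding protein, rose from 18.4 ± 3.61 to 40.6 ± 3.12 CPM, by 1.14 (edgeR adjusted p = 0.00705). Both stayed called whichever library was left out. The count of the list was 7 without EYFP 2 and 3 without EYFP 4, ATG7 2 or ATG7 3.

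Of 17 targets of Stat3, 2 rose and none fell, with a median of 0.21. Bcl3, an atypical inhibitor of NF-kB, went from 2.87 ± 0.296 to 5.79 ± 0.831 CPM, and Pim1, a serine kinase, from 11.5 ± 1.02 to 18.5 ± 2.16 CPM. Their log2 fold changes were 1.02 and 0.68 (edgeR adjusted p = 0.0206 for each), and both lost their calls without EYFP 4, ATG7 2 or ATG7 3, when 0, 0 and 1 genes of the list were called. Among 10 myeloid transcription factors that act beside Irf8, 0 passed (1 with an unadjusted p under 0.05, 0 with DESeq2), the median was 0.09, and Cebpa was lowest in p at 0.27 (edgeR adjusted p = 0.261). Without EYFP 3, 2 sensor, adaptor and kinase genes, 1 negative regulator, 13 targets of Irf1 and 2 targets of Stat3 were called. The PU.1 gene Spi1, singled out after its values were seen, was at 188.4 ± 9.86 and 200.7 ± 22.2 CPM.

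**Figure D4:**
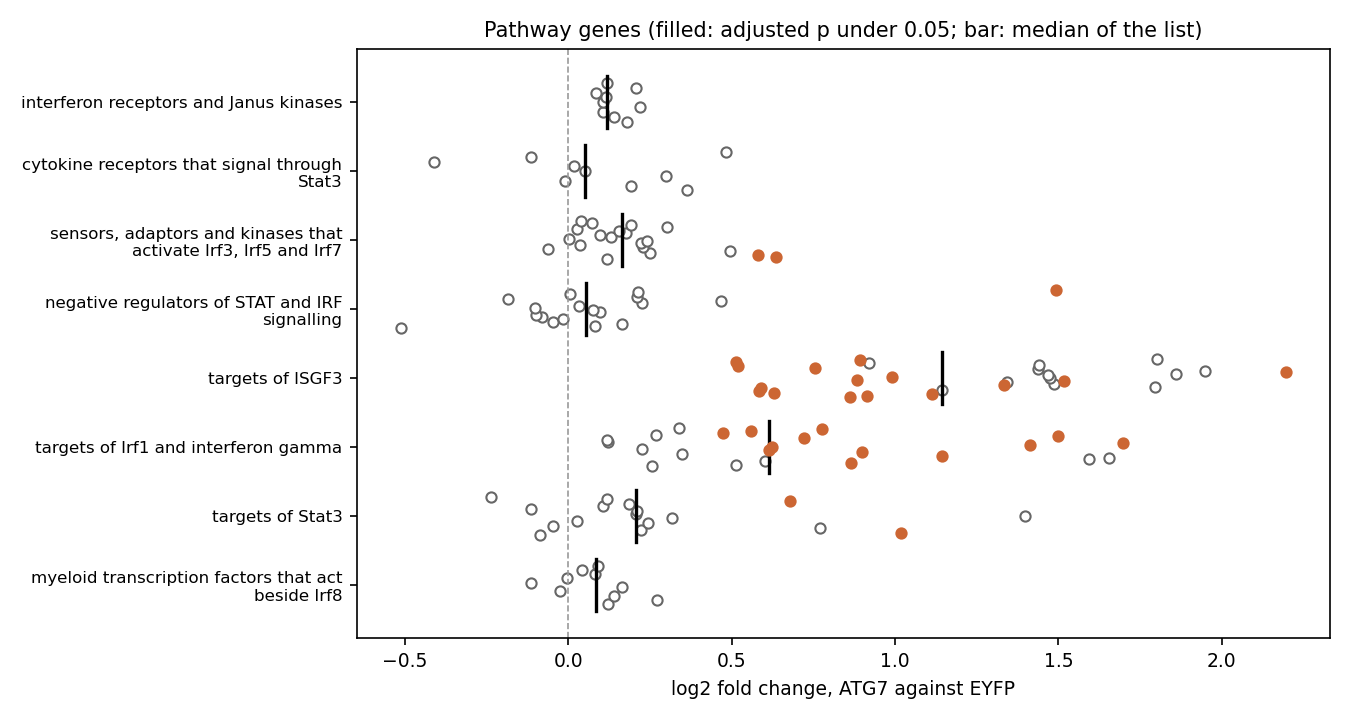
Log2 fold change of every tested gene of the 8 pathway lists (points), filled where the adjusted p was under 0.05, with the median of each list as a bar. The targets of ISGF3 (median 1.14) and of Irf1 and interferon gamma (0.61) lie to the right of the receptors and kinases (0.12) and of the factors beside Irf8 (0.09).

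The order of the control libraries was shared in part by the factors and their targets. EYFP 1 was the highest EYFP library in 6 of the 9 factors and EYFP 2 the lowest in 6, and ATG7 2 or ATG7 3 was the highest of all 7 libraries in 8. The mean log2 CPM of the 27 ISGF3 targets was 4.99, 4.67, 4.01 and 4.56 across EYFP 1 to 4, against 5.53, 5.94 and 5.90 across the ATG7 libraries. EYFP 1 was highest and EYFP 3 lowest of the controls in this mean, as in Irf7 and Stat2. The other factors did not share this: over the 9, EYFP 3 was the lowest EYFP library in 2 and the highest in 3. Over the 7 libraries, the genes most like Stat2 among the other factors and the listed pathway genes (140 genes of at least 1 CPM) were Parp14, Ddx58 and Tap1, with Pearson r of 0.99 each in log2 CPM. Those most like Irf1 were Psmb9, Dtx3l and Trim25, each with an r of 0.97. These values describe 7 libraries that also share the group difference.

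**Figure D5:**
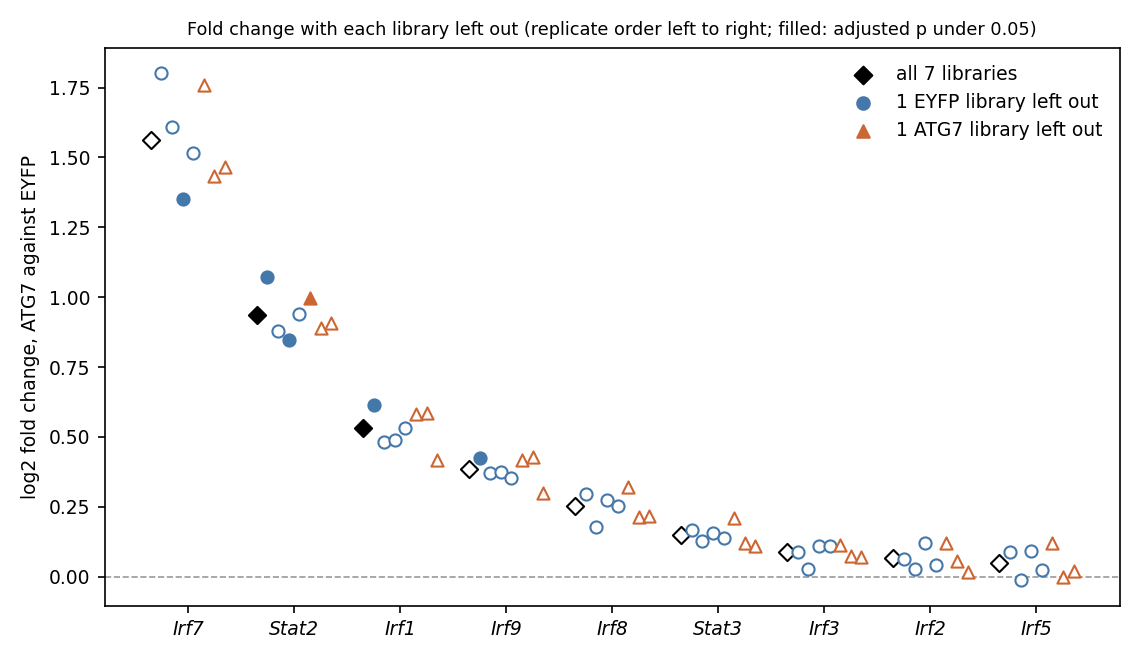
Log2 fold change of each gene with all 7 libraries (diamonds) and with each EYFP library (circles) or ATG7 library (triangles) left out, filled where the adjusted p was under 0.05. Irf7, Stat2, Irf1 and Irf9 stay at 0.30 or higher in all 8 fits, and Irf5 crosses 0.

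For 2 lists of immune cell markers the sum was higher in every ATG7 library than in every EYFP library. The summed level of 9 lymphocyte and NK cell markers was 2.42 to 5.68 CPM in EYFP and 7.34 to 19.7 CPM in ATG7, highest in ATG7 3. Of its 8 tested markers, 7 had a log2 fold change above 0, with a median of 1.604 over the 8, and 0 passed in edgeR. An unadjusted p under 0.05 with the higher level in ATG7 was found for 6, against 6.27% of all genes. DESeq2 called 4 higher, against 2.11% of all genes. The 6 were Cd3e, Cd3d, Cd3g, Cd8a, Nkg7 and Gzmb, with log2 fold changes from 1.35 (Cd3e) to 2.33 (Cd3d). Klrb1c and Cd79a overlapped between the groups, at 0.51 and -0.009. No marker of the list was at 0 in any library. The summed level of 6 dendritic cell markers was 16.4 to 20.5 CPM in EYFP and 21.8 to 28.5 CPM in ATG7. All 5 tested markers of this list had a log2 fold change above 0, and 1 was called. It was Ccr7, a chemokine receptor, which rose from 1.22 to 4.14 CPM (edgeR adjusted p = 0.0182). The other tested markers, Flt3, Zbtb46, Xcr1 and Clec9a, each overlapped between the groups. Whether the sum stays apart without Ccr7 was not tested. The summed levels of the other lists (border macrophages, monocytes and neutrophils, endothelial and mural cells, astrocytes, oligodendrocytes, neurons and the dissociation response) overlapped between the groups. Among the 7 monocyte and neutrophil markers, 3 had a log2 fold change above 0, 0 passed in edgeR, 2 had an unadjusted p under 0.05 and DESeq2 called 1. Those 2 were Ly6c2, at 2.75 ± 1.25 and 7.63 ± 5.33 CPM, and Plac8, at 3.22 ± 1.19 and 8.78 ± 3.58 CPM. Ly6c2 overlapped between the groups and was highest in ATG7 3, at 13.5 CPM. Plac8 was higher in every ATG7 library and was the gene that DESeq2 called (adjusted p = 0.00102). Of the other markers, S100a8 had a log2 fold change of 0.06, and Ccr2, S100a9, Chil3 and Ly6g had -0.03, -0.08, -0.16 and -0.82. All 7 endothelial and mural markers and all 9 dissociation-response genes had a log2 fold change above 0, with medians of 0.28 and 0.21, and 0 passed in edgeR (1 and 0 with an unadjusted p under 0.05, 0 and 0 with DESeq2). The part of these cells in the levels of the factors was not tested. Without ATG7 3 the log2 fold changes were 0.91 for Stat2, 1.47 for Irf7, 0.42 for Irf1 and 0.30 for Irf9 (edgeR adjusted p = 0.0843, 0.413, 0.237 and 0.270).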

How the data were processed

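Gene counts per library were deposited by the authors as 1 table of raw, unnormalised counts. Per the submitters' processing notes, fastp 0.20.1, HISAT2 2.0.5 and featureCounts were named, with the build mm10/GRCm38. The annotation release, the strand setting and the treatment of reads shared by genes are not given in the sources used here. Per the labels, libraries were grouped by virus. Symbols came from GENCODE M21 (55141 of 55401 identifiers matched).

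From these counts, genes were filtered with filterByExpr, scaled with TMM and tested with robust quasi-likelihood fits over all 7 libraries (edgeR 4.0.16, R 4.3.3), adjusted by Benjamini-Hochberg over 19199 genes at 0.05. Intervals are at 95% for single genes. Alternatives used DESeq2 1.42.0, limma 3.58.1 (voom), other scaling and filters, a replicate block, and each library left out. The code was checked on simulated data. A count of 3, the floor used here, equals 0.0546 to 0.0820 CPM. The 37 mitochondrial genes were listed at 0 in all libraries.

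The genes described and the lists were chosen with earlier results of these data known. All 9 factors are named, and in each list the genes with the smallest p: up to 2 that passed or, where none passed, the first. For each factor that rose, the 3 listed genes with the highest Pearson r over the libraries are named. Promoter windows are RefSeq, GRCm38.p6.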

Additional observations from a re-analysis of the deposited data

How the results depend on the processing

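The 2 genes that rose were not equally stable over the 14 alternatives. Stat2 was called in 9 and Irf1 in 3. The labels do not say whether the replicate numbers pair the libraries. The deviations of same-numbered libraries correlated at -0.0609, -0.182 and 0.0664, and those of differently numbered ones at -0.145 to 0.215. With so few libraries these values cannot decide whether the numbers pair them. With the replicate block no gene was called (0 over all genes, 0 in each list), with log2 fold changes of 0.96 for Stat2 and 0.53 for Irf1 (edgeR adjusted p = 0.219 and 0.371). Irf1 was 0.53 with DESeq2 size factors, 0.51 with library size alone, 0.53 with a mean CPM of at least 1 and 0.53 with voom (adjusted p = 0.0504, 0.0703, 0.0535 and 0.0510). Irf9 passed with no filter (0.38), with DESeq2 (0.38) and without EYFP 1 (0.42), and Irf7 with DESeq2 (1.55), with voom (1.63) and without EYFP 3 (1.35). Of the 9 factors, 1 was called with DESeq2 size factors, library size alone or a mean CPM of at least 1, 2 with voom, 3 with no filter, 4 with DESeq2 and 0 to 3 with 1 library left out. With 1 library left out, log2 fold changes lay at 0.85 to 1.07 for Stat2, 0.42 to 0.61 for Irf1, 0.30 to 0.43 for Irf9, 1.35 to 1.80 for Irf7 and -0.013 to 0.12 for Irf5, which turned negative without EYFP 2 (-0.013) and without ATG7 2 (-0.0012). Genes called numbered 145 with all libraries (91.0% higher), 297 with no filter (78.8% higher), 582 with DESeq2 (69.8% higher), and 28 to 277 with 1 library left out. The lists gave 0 to 24 for ISGF3 targets, 3 to 13 for Irf1 targets, 0 to 2 for Stat3 targets, sensors and negative regulators when 1 library was left out. ISGF3 targets numbered 27 with DESeq2 and with voom, and negative regulators 0 with no filter and 2 with DESeq2. Per kilobase of the longest transcript, the means in EYFP and ATG7 were 12.4 and 23.6 for Stat2, 19.6 and 25.6 for Irf9, 31.7 and 33.6 for Irf3, 104.6 and 108.2 for Irf5, 21.9 and 31.6 for Irf1, 20.8 and 21.8 for Irf2, 119.9 and 142.8 for Irf8, and 24.4 and 27.1 for Stat3. By this length Irf7 ranked 9 in EYFP and 5 in ATG7, below Irf3, which ranked 3 in both groups. The causes were not tested. Irf3, Irf5, Irf2, Irf8 and Stat3 were called in 0 of the 14.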

Other observations

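Partners with related roles were unequal in how they differed between the groups, by ratios of CPM per kb formed within each library. The ratio of Irf7 to Irf3 was 0.704, 0.599, 0.247 and 0.416 across EYFP 1 to 4, against 0.983, 1.55 and 1.48 across the ATG7 libraries. Per kb of merged exon, Irf7 was thus below Irf3 in all 4 EYFP libraries and in ATG7 1. It was above Irf3 in ATG7 2 and ATG7 3. Per kb of the longest transcript, the ATG7 mean of Irf7 ranked below that of Irf3. The ratio of Stat2 to Irf9, the ISGF3 subunits, was 0.649 ± 0.103 (SD, n = 4) and 0.957 ± 0.102 (SD, n = 3). The ratio of Irf1 to Irf2 was 1.06 ± 0.153 (SD, n = 4) and 1.45 ± 0.119 (SD, n = 3). The ratio of Irf8 to Irf5 lay at 0.704 to 0.776 in EYFP and 0.830 to 0.848 in ATG7, a narrow separation of the 2 most abundant factors. For all 4 ratios the groups did not overlap, but how many other gene pairs would do so was not computed. Irf7, Stat2 and Irf1 were themselves higher in every ATG7 library, so their ratios are no separate result. Ratios were not tested for significance, and their leave-one-out differences, added after seeing the data, were 1.23 to 1.73, 0.48 to 0.65, 0.37 to 0.54 and 0.19 to 0.23 on the log2 scale.

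The spread among the EYFP libraries differed between the factors. The coefficient of variation was 38.5% for Irf7 and 19.7% for Stat2, against a median of 8.18% over the 10260 genes with a mean of at least 10 CPM. That of Irf1 was 11.9%, and the other 6 factors had values from 3.68% for Stat3 to 10.7% for Irf5. These values come from only 4 libraries, so leaving out 1 can move them without that library standing apart. Leaving out each EYFP library in turn was an alternative added after seeing the data. The coefficient of variation then moved by over 1.5 times for 7 of the 9 factors, and how many other genes move as much was not computed. This coefficient was 24.8% for Irf7 and 3.50% for Irf2 without EYFP 3. Without EYFP 1 it was 10.2% for Stat2, 5.29% for Irf1 and 3.33% for Irf9. Without EYFP 2 it was 2.82% for Irf3 and 4.05% for Irf8. Within EYFP, Irf7 followed the order of the mean log2 CPM of the ISGF3 targets: EYFP 1, EYFP 2, EYFP 4 and EYFP 3. With 4 libraries this order is a description only.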
